A study of Mus musculus with 6 samples.

Results

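Transcripts of the transforming growth factor-β (TGF-β) and bone morphogenetic protein (BMP) pathways were examined in H10 and C8 cells: 36 genes that encode ligands, receptors, Smad proteins and their regulators. The genes were taken by name, and all 36 were represented among the 19930 genes of the array. H10 and C8 are puromycin-resistant lines derived from RAW264.7 mouse macrophages that carry Lifeact-mEGFP, a fluorescent actin marker delivered by a retrovirus. Resistant clones were isolated by limiting dilution. H10 cells fused into multinucleated osteoclasts in culture and C8 cells did not, so each phenotype is represented by 1 line, and other differences between the lines cannot be told apart from fusion. RNA of 3 H10 and 3 C8 samples was taken after 2 days with soluble RANKL at 60 ng/mL, and unstimulated cells were not analysed here. Values are RMA log2 intensities, and differences are given as H10 minus C8.

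TGF-β is stored in bone matrix in a latent form and is released when osteoclasts resorb bone, and it is known to make macrophage precursors responsive to RANKL. A ligand of the family binds a complex of type II and type I receptor kinases. The type I receptor then phosphorylates a receptor-activated Smad, which enters the nucleus with Smad4. TGF-β and activins act mainly through Smad2 and Smad3, and BMPs through Smad1 and Smad5. Smad6, Smad7 and the Smurf ubiquitin ligases restrain the pathway.

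Arrays of the same line had medians of 7.69 to 7.72 (H10) and 7.65 to 7.74 (C8), and the median of all values was 7.70. Most macrophage and osteoclast markers were bright, among them Csf1r at 13.22 to 13.36, Cd68 at 13.53 to 13.69 and Spi1 at 13.37 to 13.49 over the 6 arrays. Of 10 such markers, 3 rose in H10 cells (30%, beside 1.85% of all genes) and 0 fell (beside 1.04%, limma). The osteoclast protease gene Ctsk was 11.8-fold higher, with a mean of 12.69 ± 0.19 in H10 cells against 9.12 ± 0.14 in C8 (SD, n = 3). The macrophage marker Adgre1 was 4.07-fold higher, with 9.62, 9.73 and 9.40 against 7.71, 7.58 and 7.39, so that it lay close to or under the table median in C8 cells. Acp5 was 1.39-fold higher, and the mean level of the list ranged from 12.27 to 12.28 over H10 and from 11.52 to 11.65 over C8 arrays. The part of this shift in the results on the pathway was not tested. Of 9 endothelial markers, 7 lay under the table median on every array, including Pecam1 (6.96 to 7.05) and Cdh5 (7.13 to 7.33). The mean level of the endothelial list ranged from 7.05 to 7.08 over H10 and from 7.03 to 7.16 over C8 arrays. Of 10 fibroblast and osteoblast markers, 5 lay under the table median on every array. Of all 19930 genes, 8146 were above that median on no array, so 5 of 10 is not far from the general share. The mean level of this list ranged from 7.15 to 7.29 over H10 and from 7.06 to 7.20 over C8 arrays. Of the 10, 0 passed and 7 log2 fold changes were negative. The largest change was in Dcn, 2.78-fold higher in H10 cells (adjusted p = 0.074, limma). No background signal was available, so a value under the median is not evidence that a transcript was absent. In these bulk samples, fewer cells with a transcript and less of it per cell cannot be told apart.

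Of the 36 genes, Tgfbr1 and Smurf1 were higher in H10 cells, Smad1 was lower, and 33 did not pass an adjusted p of 0.05 (limma, two-sided, adjusted over all features). The 2 rises are 5.56% of the members, beside 1.85% of all genes that were called higher, and the 1 fall is 2.78%, beside 1.04% of all genes called lower. The members were brighter than genes in general: 27 of 36 were above the table median on all arrays, beside 10544 of 19930 genes. The shares of all genes given here were not matched for brightness. The median log2 fold change was -0.06 over the members and -0.03 over all genes. Most members moved little, with 28 of 36 log2 fold changes under 0.25 in size. Over all genes, 17864 of 19930 were under 0.25, a larger share than among the members. All 3 H10 arrays lay above all 3 C8 arrays for 3 members (8.33%, beside 7.74% of all genes), and below them for 5 members (13.9%, beside 12.7%). At an unadjusted p under 0.05, 2 members were higher (6.1% of all genes were) and 5 were lower, 13.9% of the members beside 7.67% of all genes.

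**Figure D1:**
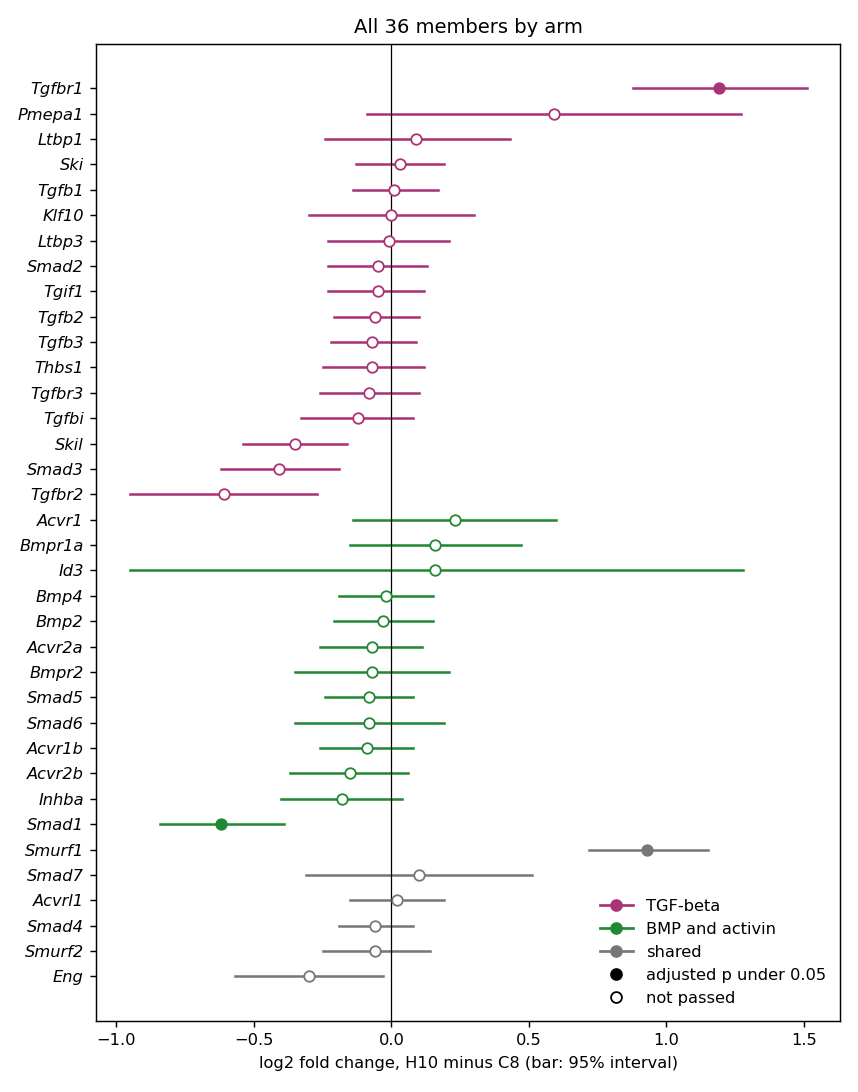
Log2 fold change of each of the 36 members, H10 minus C8, with its 95% interval from limma (n = 3 arrays per line), grouped by arm. Filled points passed an adjusted p of 0.05: Tgfbr1 at 1.19, Smurf1 at 0.93 and Smad1 at -0.62.

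The promoters of the 3 genes that changed are shown to give the sequence around their start sites. RefSeq windows of 250 bases before to 50 bases after a start site (GRCm38.p6) were given for 25 of the 36 members, in 33 windows. Capitals mark the Smad box CAGAC (or GTCTG, its reverse complement) and the palindrome GGCGCC, a GC-rich element bound by Smads. The AP-1 site TGANTCA was searched too, on both strands as the others.

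Tgfbr1, chr4:47352972-47353271, plus strand: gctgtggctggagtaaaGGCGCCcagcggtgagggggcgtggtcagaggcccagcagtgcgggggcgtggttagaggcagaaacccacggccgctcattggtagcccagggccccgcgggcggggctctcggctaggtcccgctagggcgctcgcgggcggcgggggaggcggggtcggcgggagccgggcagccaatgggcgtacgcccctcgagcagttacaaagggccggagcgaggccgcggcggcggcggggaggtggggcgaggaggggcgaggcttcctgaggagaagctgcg

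Smurf1, chr5:144965781-144966080, minus strand: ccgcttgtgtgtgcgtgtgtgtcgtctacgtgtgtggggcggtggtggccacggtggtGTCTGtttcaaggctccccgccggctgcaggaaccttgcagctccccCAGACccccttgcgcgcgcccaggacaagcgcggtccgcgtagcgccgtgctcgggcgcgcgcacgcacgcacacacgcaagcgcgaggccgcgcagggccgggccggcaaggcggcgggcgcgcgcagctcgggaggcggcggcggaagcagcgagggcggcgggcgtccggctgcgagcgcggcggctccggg

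Smad1, chr8:79399379-79399678, minus strand: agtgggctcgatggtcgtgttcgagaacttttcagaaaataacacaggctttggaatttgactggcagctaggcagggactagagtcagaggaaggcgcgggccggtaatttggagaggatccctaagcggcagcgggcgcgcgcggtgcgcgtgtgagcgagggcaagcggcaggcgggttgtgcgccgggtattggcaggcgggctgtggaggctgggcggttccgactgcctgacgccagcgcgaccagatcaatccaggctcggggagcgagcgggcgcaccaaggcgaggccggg

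The Smurf1 window held the Smad box at 2 places, both before the start site. The Tgfbr1 window shown held GGCGCC once, and a second Tgfbr1 window, at chr4:47385966-47386265, held the Smad box once. The Smad1 window held none of the 3 motifs, which says only that these letters are not in it. The Smad box occurred in 49.6% of all 32851 promoter windows and in 51.5% of the members' windows, GGCGCC in 11.9% and 27.3%, and the AP-1 site in 7.81% and 3.03%. The members' windows had a median GC content of 64.0%, beside 52.7% over all windows.

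Tgfbr1, the type I receptor of TGF-β, rose in H10 cells. Its log2 values were 10.74, 10.88 and 11.15 in H10 cells against 9.91, 9.69 and 9.59 in C8, so the lines did not overlap. The means were 10.92 ± 0.21 and 9.73 ± 0.16 (SD, n = 3), a 2.29-fold difference with a 95% interval of 0.88 to 1.51 on the log2 scale (adjusted p = 0.0087, limma). Without C8 replicate 2 the adjusted p was 0.0511 in limma.

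Tgfbr2, the type II receptor that starts signalling by phosphorylating Tgfbr1, leaned the other way. Its values were 10.65, 11.16 and 11.07 in H10 cells against 11.46, 11.60 and 11.66 in C8, so every H10 array was below every C8 array. The log2 fold change was -0.61 (standard error 0.14), and it did not pass (adjusted p = 0.11, limma). Without H10 replicate 1, the lowest array for Tgfbr2, the log2 fold change was -0.46 (adjusted p = 0.104, limma). Within each array, Tgfbr1 minus Tgfbr2 was 0.09, -0.28 and 0.08 in H10 cells and -1.55, -1.91 and -2.07 in C8 cells. Its shift of 1.81 between the lines follows from the opposite leanings of the receptors just given and adds no test to them. The probes of each receptor differ, so it does not say which receptor was more abundant.

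The co-receptors present ligand to these kinases. Eng, which encodes endoglin, had values of 10.96, 10.62 and 10.58 in H10 cells against 10.98, 11.10 and 10.97 in C8. All H10 arrays lay below all C8 arrays, H10 replicate 1 only narrowly, and the log2 fold change of -0.30 did not pass (adjusted p = 0.364, limma). Tgfbr3, or betaglycan, was under the table median on all arrays, with a log2 fold change of -0.08. Acvrl1, a type I receptor known from endothelium, had 0.02.

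No receptor of the BMP and activin arm passed the test. Bmpr1a, a BMP type I receptor, had values of 11.63, 12.04 and 11.99 in H10 cells against 11.58, 11.84 and 11.76 in C8. Acvr1, another BMP type I receptor, had 9.86, 9.33 and 9.44 in H10 cells against 9.49, 9.21 and 9.24 in C8. The type II receptor Bmpr2 had 10.54, 10.18 and 10.23 in H10 cells against 10.53, 10.35 and 10.28 in C8. The lines overlapped for each of these receptors. The 95% intervals of their log2 fold changes were -0.15 to 0.47 for Bmpr1a, -0.14 to 0.60 for Acvr1 and -0.35 to 0.21 for Bmpr2, so a change as large as that of Tgfbr1 lies outside each interval. The activin receptors Acvr1b, Acvr2a and Acvr2b had log2 fold changes of -0.09, -0.07 and -0.15.

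Smad1, a receptor-activated Smad of the BMP arm, fell in H10 cells. Its values were 8.06, 8.03 and 8.17 in H10 cells against 8.88, 8.61 and 8.62 in C8, with no overlap. The means were 8.09 ± 0.07 and 8.70 ± 0.15 (SD, n = 3), so that it was 1.53-fold higher in C8 cells (log2 fold change -0.62, 95% interval -0.84 to -0.39, adjusted p = 0.0277, limma). The direction held without any 1 array, but the call did not: leaving out an H10 array, or C8 replicate 2 or 3, gave an adjusted p of 0.0722 to 0.123 (limma). Smad5, which BMP receptors also activate, had 9.66, 9.61 and 9.59 in H10 cells against 9.80, 9.67 and 9.63 in C8. These overlapped, with a log2 fold change of -0.08 (95% interval -0.24 to 0.08). Smad9, a further BMP-activated Smad that was taken from the wider lists, read 7.85, 8.04 and 7.92 in H10 cells against 8.01, 7.99 and 8.28 in C8, which overlapped too (log2 fold change -0.16).

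Of the Smads that TGF-β activates, Smad3 had values of 8.80, 8.61 and 8.60 in H10 cells against 9.20, 8.97 and 9.06 in C8. All H10 arrays were lower, and the log2 fold change of -0.41 (standard error 0.09) did not pass (adjusted p = 0.0972, limma). Smad2 had 10.50, 10.65 and 10.69 in H10 cells against 10.67, 10.73 and 10.59 in C8, which overlapped, and its log2 fold change was -0.05 (95% interval -0.23 to 0.13). Smad4, the partner of both kinds of Smad, had 11.36, 11.38 and 11.39 in H10 cells against 11.46, 11.39 and 11.45 in C8. Its log2 fold change was -0.06 (95% interval -0.19 to 0.08). On chromosome 9 of GRCm38.p6, Smad3 and Smad6 lie in the stretch between Kmt2a and Mto1. Its 205 genes brighter than the table median had a median log2 fold change of -0.35, beside -0.03 over all genes of any brightness. The ends of the stretch may have been set with results of these data known, so its median is not independent of them. Smad6 had a log2 fold change of -0.08 there. Tgfbr2 and Acvr2b are on the same chromosome outside that stretch.

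Smurf1, a ubiquitin ligase that targets Smads and receptors of the family, rose in H10 cells. Its values were 10.42, 10.37 and 10.43 in H10 cells against 9.64, 9.45 and 9.33 in C8. The H10 arrays lay close together and above every C8 array. The difference was 1.91-fold (log2 fold change 0.93, 95% interval 0.72 to 1.15, adjusted p = 0.00554, limma), and it passed in all 14 alternative fits run for it (adjusted p = 0.00134 to 0.041). Smurf2, its close relative, had a log2 fold change of -0.06 (95% interval -0.25 to 0.14) on its brighter feature. A dimmer feature of Smurf2 gave 0.18, so its direction is not settled.

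**Figure D2:**
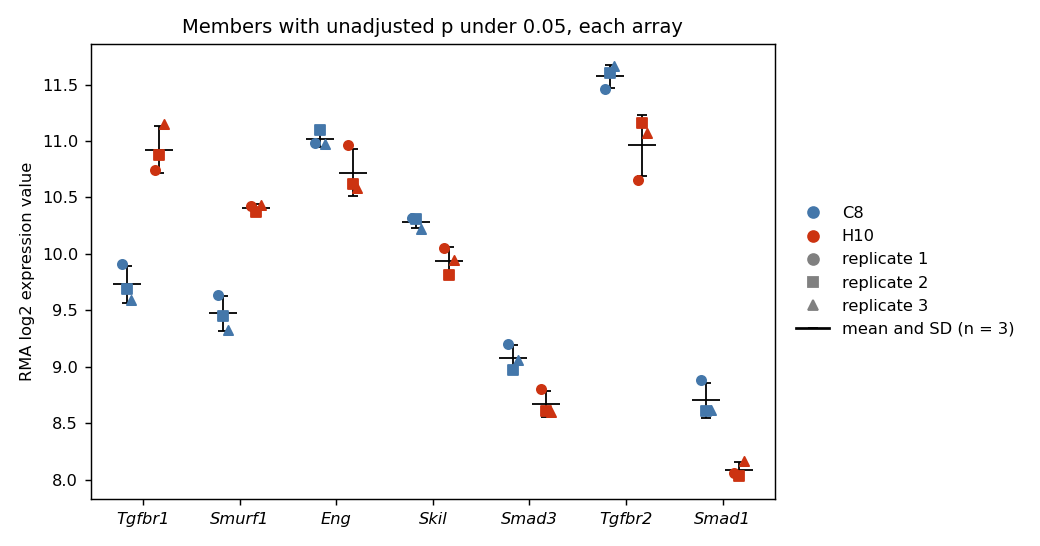
RMA log2 values of the 7 members with an unadjusted p under 0.05, on each C8 and H10 array, with each line's mean and its SD (n = 3). Tgfbr1 and Smurf1 were higher on all H10 arrays, and Eng, Skil, Smad3, Tgfbr2 and Smad1 were lower on all of them; of the 7, Tgfbr1, Smurf1 and Smad1 passed an adjusted p of 0.05.

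Among the ligands, Tgfb1 was bright and its lines overlapped, at 11.96, 12.01 and 12.01 in H10 cells against 12.07, 11.94 and 11.93 in C8. Its log2 fold change was 0.01 (95% interval -0.14 to 0.17). The other 5 ligands, Tgfb2, Tgfb3, Bmp2, Bmp4 and the activin subunit gene Inhba, were under the table median on all arrays, with log2 fold changes of -0.18 to -0.02. Of the genes that hold or release latent TGF-β, Ltbp3 and Ltbp1 had -0.01 and 0.09, and Thbs1, which can activate latent TGF-β, had -0.07.

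None of the inhibitory Smads, Smad co-repressors or target genes passed. Skil, which encodes the co-repressor SnoN and is itself induced by TGF-β, had 10.05, 9.81 and 9.95 in H10 cells against 10.32, 10.31 and 10.22 in C8. The H10 arrays were all lower, with a log2 fold change of -0.35 (adjusted p = 0.11, limma). The co-repressor genes Ski and Tgif1 had 0.03 and -0.05. A filter on dim features, which tested 17939 features instead of 35545, added Tgfbr2, Smad3 and Skil to the members called lower (adjusted p = 0.0441, 0.038 and 0.0443, limma).

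H10 replicate 1 stood apart from the other H10 arrays in several feedback and target genes, and in some receptors given above. It was the lowest H10 array for Tgfbr2 and Bmpr1a and the highest for Acvr1, Bmpr2 and Eng. Id3, a BMP target, read 9.58 on H10 replicate 1 and 7.90 and 7.86 on the other H10 arrays, against 8.49, 8.43 and 7.93 in C8 cells. Its log2 fold change was 0.16 over all arrays and -0.40 without H10 replicate 1, and neither passed (adjusted p = 0.954 and 0.556, limma). Pmepa1, a TGF-β target that limits Smad signalling, read 11.37 on that array and 10.31 and 10.36 on the others, against 10.12, 10.22 and 9.93 in C8 cells.

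All H10 arrays were above the C8 arrays for Pmepa1, and its log2 fold change was 0.59 with all arrays and 0.24 without H10 replicate 1 (adjusted p = 0.503 and 0.524, limma). Smad7, the inhibitory Smad of both arms, had 8.48, 7.89 and 8.00 in H10 cells against 8.14, 7.81 and 8.12 in C8. Smad6, the inhibitory Smad of the BMP arm, had 8.48, 8.27 and 8.05 in H10 cells against 8.33, 8.31 and 8.41 in C8. The lines overlapped for both inhibitors, with log2 fold changes of 0.10 and -0.08. Klf10, an early TGF-β target, had a log2 fold change of 0.00, and Tgfbi, which encodes a secreted matrix protein, had -0.12.

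**Figure D3:**
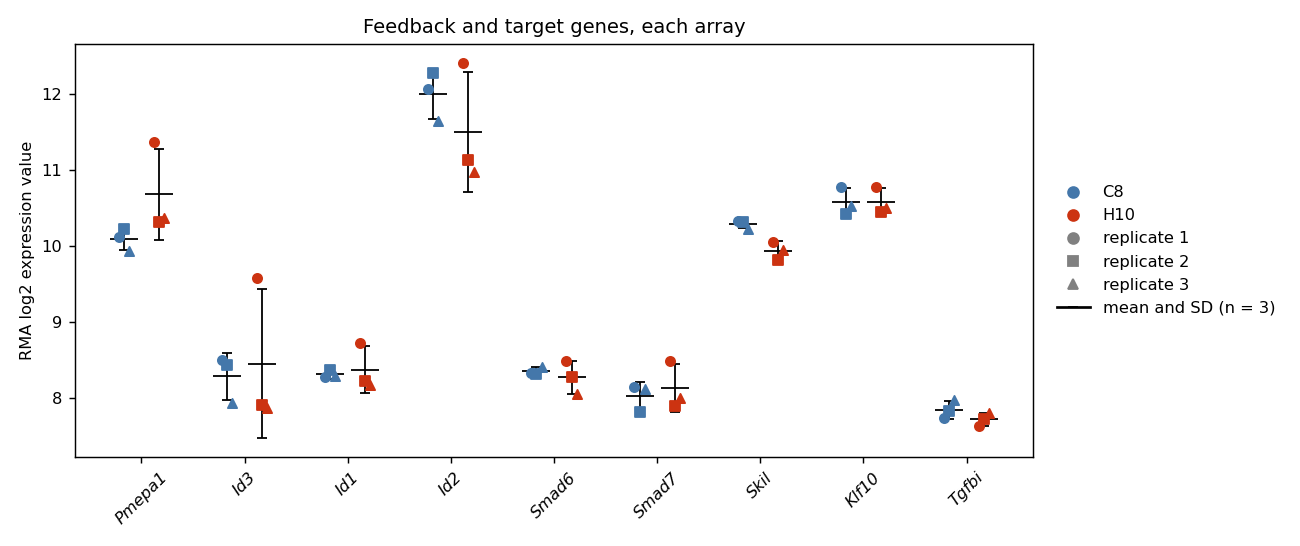
RMA log2 values of feedback and target genes on each C8 and H10 array, with each line's mean and its SD (n = 3). H10 replicate 1 (red circle) was the highest H10 array for Pmepa1, at 11.37, and for Id3, at 9.58, and the SD of Id3 was 0.98 in H10 and 0.31 in C8 cells.

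Each member was assigned to an arm or to both: 17 to the TGF-β arm, 13 to the BMP and activin arm and 6 to both. Smad2 and Smad3 were counted in the TGF-β arm although activins act through them too, so the arms are not fully separate. In the TGF-β arm 1 member rose (5.88%, beside 1.85% of all genes) and 0 fell. Its log2 fold changes had a median of -0.05 and a range of -0.61 to 1.19. In the BMP and activin arm 0 rose and 1 fell (7.69%, beside 1.04% of all genes), with a median of -0.07 and a range of -0.62 to 0.23. Of the members assigned to both, Smurf1 was the 1 that rose (16.7%, beside 1.85% of all genes), and the median was -0.02. Each of these shares rests on 1 gene. The arms' medians lie close to that of all genes, -0.03, and members are not replicates, so the arms were not tested against each other.

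The remaining genes of the pathway were examined in lists by role, in which 101 genes had a feature annotated to them alone and 8 did not. Of these, 4 rose (3.96%, beside 1.85% of all genes) and 1 fell (0.99%, beside 1.04%), and their median log2 fold change was -0.02. The share that fell was thus that of all genes. Among 25 other ligands, from Bmp6 to Gdf11 and Mstn, 0 passed in either direction (limma; at an unadjusted p under 0.05, 0 were higher and 2 lower, 8.0% beside 7.67% of all genes). Of 9 other receptors and co-receptors, 1 rose (11.1%, beside 1.85% of all genes) and 0 fell. This was the co-receptor gene Cd109, the gene the study follows, with values of 11.64, 11.35 and 11.62 in H10 cells against 7.94, 7.03 and 7.06 in C8. The study picked Cd109 from these same arrays because it was higher in H10 cells. Its rise was thus known before the lists were made, and it is counted in the shares of this list and of the 101 genes.

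Of 24 other signal transducers, 2 rose (8.33%, beside 1.85% of all genes) and 0 fell. Zfyve9, which encodes SARA, the endosomal anchor that brings Smad2 and Smad3 to the receptor, had 8.63, 8.13 and 8.44 in H10 cells against 7.07, 6.82 and 6.76 in C8. Its lines did not overlap and differed by 2.86-fold (log2 fold change 1.52, standard error 0.15, adjusted p = 0.00554, limma). Its C8 arrays lay under the table median, which limits how well the fold is known. Cav1, a caveolin that can carry TGF-β receptors into caveolae, was higher by 1.15 on the log2 scale (adjusted p = 0.00935, limma), which did not pass without C8 replicate 2 (adjusted p = 0.0521) or with the replicate number as a block (adjusted p = 0.058). It read 7.78, 7.53 and 7.48 in H10 cells against 6.24, 6.45 and 6.65 in C8, above the table median on 1 array, and the filter on dim features removed it.

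Of 20 extracellular regulators, 0 rose and 1 fell (5.0%, beside 1.04% of all genes). Furin, the protease that cleaves the TGF-β precursor, had 11.04, 11.32 and 11.23 in H10 cells against 11.83, 11.76 and 11.76 in C8. The H10 arrays were all lower, and the log2 fold change was -0.59 (standard error 0.09, adjusted p = 0.024, limma). Its call was lost without any C8 array or without H10 replicate 2 or 3 (adjusted p = 0.0506 to 0.108, limma).

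Of 23 other target genes, 1 rose (4.35%, beside 1.85% of all genes) and 0 fell. Tgm2, which encodes the cross-linking enzyme transglutaminase 2, had 9.66, 9.98 and 10.13 in H10 cells against 8.08, 8.14 and 8.37 in C8. The difference was 3.31-fold (log2 fold change 1.73, standard error 0.14, adjusted p = 0.00305, limma). Of the other Id genes, Id1 and Id2 had H10 replicate 1 as their highest H10 array, as Id3 did, and Id4 (8.01, 8.10 and 8.03) had it as the lowest. Id2 read 12.41, 11.13 and 10.97 in H10 cells against 12.07, 12.28 and 11.64 in C8. Its log2 fold change was -0.49, and -0.95 without H10 replicate 1 (adjusted p = 0.754 and 0.119, limma). Id1 read 8.72, 8.22 and 8.17 in H10 cells against 8.27, 8.37 and 8.28 in C8, which overlapped.

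**Figure D4:**
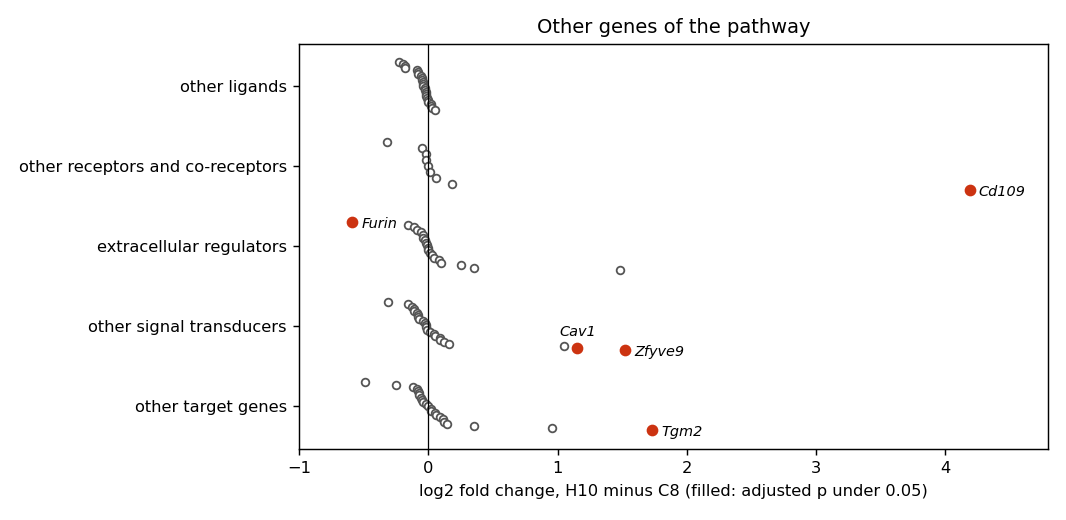
Log2 fold change, H10 minus C8, of 101 other genes of the pathway in 5 lists by role, each list's genes in order of their fold change. Filled points passed an adjusted p of 0.05: Cd109 at 4.19, Tgm2 at 1.73, Zfyve9 at 1.52, Cav1 at 1.15 and Furin at -0.59.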

How the data were processed

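Total RNA of 3 H10 and 3 C8 samples was hybridized to Affymetrix Mouse Gene 1.0 ST arrays. The authors normalized the raw data with RMA and deposited log2 values for 35545 features. Affymetrix Expression Console is listed among their tools in the submitters' processing notes, with the version not given in the sources used here. No further normalization was applied. Whether replicate arrays represent separate cultures is not stated, so p-values reflect only array-to-array spread, possibly technical. Precision is limited by having 3 arrays per line.

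Gene names came from GEO's platform annotation. Features with 1 symbol (21781) were used, and the feature with the highest mean stood for a gene. Gene order came from the GRCm38.p6 gene table and promoters from RefSeq on that build.

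H10 was set against C8 using limma 3.58.1 under R 4.3.3 (lmFit and eBayes, two-sided), with Benjamini-Hochberg adjustment over all features and a threshold of 0.05. The limma fit was tested on simulated arrays with independent noise. At a simulated 2-fold change 95% of changed features were recovered, and 7.62% of all calls fell on unchanged features. Full values are given for members past an adjusted or unadjusted p of 0.05 and for core receptors and Smads; wider lists name up to 4 genes per direction past the test. Other genes were named after their values were seen, among them Pmepa1, Id1, Id2 and Id3. The members and lists were chosen with earlier results of these data known. The alternatives were other scalings, filters, priors and adjustments, a replicate block, and leaving out arrays. Figures were drawn with matplotlib 3.10.9.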

Additional observations from a re-analysis of the deposited data

How the results depend on the processing

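Smurf1 kept its direction and its call in all 14 fits run for it, and so did Zfyve9, Tgm2 and Cd109. Tgfbr1 kept its direction in all 14 and its call in 12. The cause of the changes below was not tested, except that a filter tests fewer features and leaving out arrays uses fewer samples. The count of members higher was 2 in the main comparison; it was 1 with the replicate number as a block (replicate block), where Tgfbr1 had an adjusted p = 0.0545 in limma, and 1 to 2 without 1 array. The count of members lower was 1; it was 4 with the filter on dim features, 0 with the replicate block, 0 without the replicate 1 arrays of both lines (a setting chosen after seeing the data), 0 at an adjusted p of 0.01, 2 at 0.1, and 0 to 1 without 1 array. In the wider lists the count lower was 1; it was 2 with the filter, with the intensity trend and robust prior and with quantile normalization, 0 with the replicate block and without both replicate 1 arrays, and 0 to 1 without 1 array. The labels do not say that a replicate number marks a shared culture, and deviations of same-numbered arrays correlated at 0.17, 0.00 and -0.12, so the block pairs arrays by number only. H10 replicate 1 correlated best with its own number (0.17), H10 replicate 2 with C8 replicate 3 (0.14) and H10 replicate 3 with C8 replicate 2 (0.23).

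Uncalled fold changes near 0 changed sign. Without 1 array they ranged from -0.01 to 0.06 for Tgfb1, -0.09 to 0.01 for Smad2, -0.19 to 0.03 for Smad6, -0.08 to 0.22 for Smad7, -0.10 to 0.01 for Bmp2, -0.05 to 0.03 for Bmp4, -0.01 to 0.07 for Acvrl1, -0.01 to 0.07 for Ski, -0.07 to 0.06 for Ltbp3, -0.40 to 0.46 for Id3 and -0.11 to 0.16 for Id1. Without both replicate 1 arrays, Smad2 was 0.01, Smad7 -0.02, Acvrl1 -0.01, Tgif1 0.01, Id3 -0.30 and Id1 -0.13. With its features averaged, Smurf2 was 0.06. Averaging features was not run for Tgfbr1 minus Tgfbr2, since each receptor has 1 feature.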

Other observations

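Several pathway genes outside those named by rule did not pass the test although all H10 arrays lay on the same side of all C8 arrays, and they were chosen after their values were seen. Of 101 genes in the wider lists, 12 had all H10 arrays above all C8 arrays (11.9%, beside 7.74% of all genes) and 10 had them below (9.9%, beside 12.7%). Dcn, which encodes decorin, a matrix proteoglycan that binds TGF-β and is also a fibroblast marker, read 8.46, 7.19 and 7.74 in H10 cells against 6.50, 6.21 and 6.25 in C8 (adjusted p = 0.074, limma). It was above the table median on 2 of the 6 arrays, both H10, and its SD in H10 cells was 0.64, which limits how well the difference is known. Nedd4l, a ubiquitin ligase that acts on activated Smads, read from 8.16 to 9.20 in H10 cells against 7.64 to 7.83 in C8 (adjusted p = 0.131). Itgav, the αv integrin chain that helps release latent TGF-β, read 13.27, 13.22 and 13.28 in H10 cells against 12.96, 12.96 and 12.79 in C8 (adjusted p = 0.0704). Rnf111, a ubiquitin ligase that removes Smad7 and SnoN, read 10.73, 10.72 and 10.69 in H10 cells against 11.10, 11.00 and 10.97 in C8 (adjusted p = 0.0707). Its log2 fold change was -0.31. Rnf111 is on chromosome 9, as Smad3 is. The 205 genes of the stretch from Kmt2a to Mto1, with a median of -0.35, were taken by position. Whether Rnf111 was among them was not looked up, so its fall cannot be told apart from that of the stretch.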
